A study of Mus musculus with 18 samples.

Results

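Klf2, Klf4 and Klf5, the Krüppel-like factors of naive pluripotency, were followed by their gene symbols through all 18 libraries of a mouse series of 25909 genes. They were chosen by name, so all 3 members of 3 are described, and all 3 passed the filter on low counts. The series holds 3 libraries for each of 6 groups. These were Esrrb KO and WT epiblast-like cells (EpiLC), Esrrb KO and WT primordial germ cell-like cells (PGCLC) at day 3, and Esrrb KO and WT PGCLC at day 5. All cells derive from SGET mouse embryonic stem cells of the B6CBA/129 background, a reporter line kept before differentiation on gelatin in 2i with LIF. EpiLC were made with activin A and bFGF and were not sorted. PGCLC were made from them with BMP4, LIF, SCF, BMP8a and EGF and sorted by the SG and ET reporters (positive for the first, low for the other). A step from EpiLC to PGCLC therefore changes the medium and the sort together, and these cannot be told apart. The KO libraries carry the names A5, B1 and A2 at every stage and the WT libraries the numbers 1 to 3. Whether the WT libraries came from separate cultures is not in the labels, so p-values may measure spread that is technical. The late PGCLC carry day 6 in their descriptions but 5 days elsewhere in the labels, and day 5 is used here.

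Krüppel-like factors bind GC-rich and CACCC sequences through zinc fingers at their C-terminal end. In mouse embryonic stem cells Klf2, Klf4 and Klf5 are partly interchangeable: they bind many of the same sites, and self-renewal is lost when all of them are depleted together. Klf4, a factor used to reprogram somatic cells, is a target of LIF and STAT3 signalling, Klf2 protein is destabilised by ERK signalling, and Klf5 is also needed for the trophectoderm and inner cell mass of the blastocyst. Esrrb, the orphan nuclear receptor named as knocked out, belongs to the same naive network, which is shut down in the formative epiblast and in part switched on again in mouse germ cells.

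Klf2 (ENSMUSG00000055148) lies on the plus strand of chromosome 8, from 72319033 to 72321656 in GRCm38. Klf4 (ENSMUSG00000003032) lies on the minus strand of chromosome 4, from 55527143 to 55532466, and Klf5 (ENSMUSG00000005148) on the plus strand of chromosome 14, from 99298691 to 99315036. All 3 are protein-coding, and no other annotated gene overlaps any of them. The promoter regions of Klf2 and Klf4 are shown because the data turn on how differently these genes behaved in KO PGCLC. They come from RefSeq (GRCm38.p6) and end before the first transcribed base, chr8:72318812-72319032 on the plus strand for Klf2 and chr4:55532476-55532725 on the minus strand for Klf4. Capitals mark GC boxes (GGGGCGGGG on either strand) and, in Klf2, a match to the MEF2 motif.
Klf2: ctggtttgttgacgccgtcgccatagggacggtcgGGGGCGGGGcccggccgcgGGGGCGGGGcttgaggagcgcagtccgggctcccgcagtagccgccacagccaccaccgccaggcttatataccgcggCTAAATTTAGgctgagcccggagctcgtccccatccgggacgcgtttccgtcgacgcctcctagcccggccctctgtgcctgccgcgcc
Klf4: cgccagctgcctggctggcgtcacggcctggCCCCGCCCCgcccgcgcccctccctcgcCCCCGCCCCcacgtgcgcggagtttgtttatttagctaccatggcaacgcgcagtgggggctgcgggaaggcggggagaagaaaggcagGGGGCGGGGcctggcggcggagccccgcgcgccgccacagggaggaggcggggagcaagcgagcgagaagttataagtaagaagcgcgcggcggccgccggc
A GC box occurs 2 times in the Klf2 region and 3 times in the Klf4 region, and 10.4% of 32851 promoter regions of 250 bases hold at least 1. The MEF2 motif is in the Klf2 region and in 2.92% of all regions. MEF2 factors are known to drive Klf2 downstream of ERK5. The core of the ESRRB motif (AAGGTCA, either strand, in 4.08% of all regions) and a STAT motif (TTCNNNGAA, in 7.02%) have no match in the 250 bases before the RefSeq start of either gene.

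Libraries held 3032965 to 5286330 counts. Levels are the deposited CPM, counts scaled to the library total. Fold changes, on the log2 scale ± SE, come from edgeR's quasi-likelihood test, with p-values adjusted by Benjamini-Hochberg over 12856 tested genes and called below 0.05. The targeted gene went with its label in PGCLC: at day 3 Esrrb averaged 139 CPM in KO and 610 CPM in WT (-2.13 ± 0.43, adjusted p = 0.00554), and at day 5 it averaged 160 CPM in KO and 593 CPM in WT (-1.89 ± 0.42, adjusted p = 0.00598). In EpiLC it was not called (-0.68 ± 0.52, adjusted p = 0.401). The library labelled KO A2 held 38.6 CPM of Esrrb, above the highest WT EpiLC library (32.2 CPM). Fold changes of members that rest on it are given with and without it. Group means, shares, ratios and counts of called genes in lists include it unless stated. The deleted part of Esrrb is not given, so counts over the gene need not show a deletion. From EpiLC to day 3, 7 of 8 formative epiblast markers fell in KO (all but Otx2) and 8 of 8 in WT, and 6 of 8 germ cell markers rose in KO (all but Itgb3 and Dnd1) and 8 of 8 in WT. Over all tested genes, 21.4% fell and 20.6% rose in KO, and 28.5% fell and 29% rose in WT. Fgf5, Dnmt3a and Otx2, formative markers, were called lower in KO than in WT EpiLC, also without the library labelled KO A2. With only the EpiLC libraries fitted, no gene was called. Between KO libraries of a group, chi-square over genes was 3.88 to 33.6 for each degree of freedom, and between WT libraries 1.11 to 1.80, close to the 1 that counting alone gives. The test uses a single spread per gene over all libraries.

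At the EpiLC stage all 3 factors were at their lowest in WT, and Klf2 was by far the most abundant. Klf2 stood at 90.3 (A5), 42.1 (B1) and 76.5 CPM (labelled A2) in KO EpiLC, against 59.5, 60.2 and 59.5 CPM in WT EpiLC. The KO libraries lay on either side of the WT libraries, which were nearly equal. Klf4 stood at 4.23, 3.30 and 14.1 CPM in KO EpiLC, against 3.80, 5.24 and 2.76 CPM in WT EpiLC. Here A5 and B1 lay within the range of WT, and the library labelled KO A2 alone lay above it. Klf5 stood at 8.46, 5.58 and 46.5 CPM in KO EpiLC, against 6.84, 7.38 and 5.77 CPM in WT EpiLC. The library labelled KO A2 again stood apart, at 6.97 times the WT mean.

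None of the 3 members was called between KO and WT EpiLC, where 11.1% of all tested genes were (6.93% higher and 4.15% lower). A fit of only the EpiLC libraries called 0 genes, so no call between KO and WT EpiLC given here came from those libraries alone. The log2 fold change was 0.18 ± 0.24 for Klf2 (adjusted p = 0.662), 0.84 ± 0.55 for Klf4 (adjusted p = 0.326) and 1.57 ± 0.58 for Klf5 (adjusted p = 0.089). Without the library labelled KO A2 these values were 0.08, -0.13 and 0.01. The direction of Klf4 thus turned, and the value of Klf5 came to almost nothing. With DESeq2, Klf5 passed with that library included (1.58, adjusted p = 0.025). Marker sums of several lists stood apart in that library. The 9 trophoblast markers summed to 1238 CPM in it, against 93.6 and 201 CPM in the other KO EpiLC libraries and 55.5 to 63.1 CPM in WT EpiLC, with Elf5 at 0 in every EpiLC library. The 6 mesenchyme markers summed to 1977 CPM in it, against 262 and 337 CPM in the other KO EpiLC libraries and 226 to 238 CPM in WT EpiLC. The 8 formative markers summed to 1739 CPM in it, against 3628 and 4150 CPM in the other KO EpiLC libraries and 5106 to 5222 CPM in WT EpiLC. The 13 other genes of the naive network summed to 699.6 CPM in it, against 267 and 346 CPM in the other KO EpiLC libraries and 415 to 490 CPM in WT EpiLC. The part of these markers in the Klf4 and Klf5 values of that library was not tested. In bulk RNA, fewer cells of a type and less RNA per cell cannot be told apart.

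All 3 factors rose between EpiLC and PGCLC day 3 in each genotype, Klf4 most in WT. The step called 42% of tested genes in KO (20.6% higher, 21.4% lower) and 57.5% in WT (29% higher, 28.5% lower). In KO the log2 fold change of day 3 over EpiLC was 2.62 ± 0.24 for Klf2 (6.16-fold, adjusted p = 1.04e-06), 2.29 ± 0.43 for Klf4 (4.89-fold, adjusted p = 0.000671) and 1.87 ± 0.48 for Klf5 (3.64-fold, adjusted p = 0.00602). In WT it was 2.81 ± 0.24 for Klf2 (7.01-fold, adjusted p = 1.83e-07), 5.03 ± 0.47 for Klf4 (32.6-fold, adjusted p = 4.20e-07) and 3.50 ± 0.55 for Klf5 (11.3-fold, adjusted p = 7.27e-05). For Klf5 in KO the call was lost when only those 6 libraries were fitted (1.87, adjusted p = 0.115). Without the EpiLC library labelled KO A2, the KO step was 3.26 for Klf4 and 3.43 for Klf5. By line, the ratio of day 3 to EpiLC was 5.83 (A5), 11.2 (B1) and 3.76 (A2) for Klf2, 6.93, 9.80 and 3.23 for Klf4, and 7.72, 13.8 and 1.76 for Klf5. Every line increased in every factor, and A2 increased least.

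The test of the difference between these steps (KO step minus WT step) called Klf4 alone among the 3, at -2.74 ± 0.66 (adjusted p = 0.0236), where 6.59% of tested genes were called (2.96% positive and 3.63% negative). It gave -0.19 ± 0.33 for Klf2 (adjusted p = 0.777) and -1.63 ± 0.73 for Klf5 (adjusted p = 0.192). Without the EpiLC library labelled KO A2 the Klf4 value shrank to -1.76 and was not called (adjusted p = 0.124), and without all libraries of line A2 it was -1.99 (adjusted p = 0.186). The call was also lost, at about the same size, without WT EpiLC 1 (-2.71, adjusted p = 0.0605), WT EpiLC 3 (-2.54, adjusted p = 0.0659) or WT day 3 library 1 (-2.64, adjusted p = 0.0501). Without KO EpiLC B1 the Klf5 difference was called (-2.07, adjusted p = 0.0378), and with B1 kept but the EpiLC library labelled KO A2 left out its value was -0.07.

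**Figure D1:**
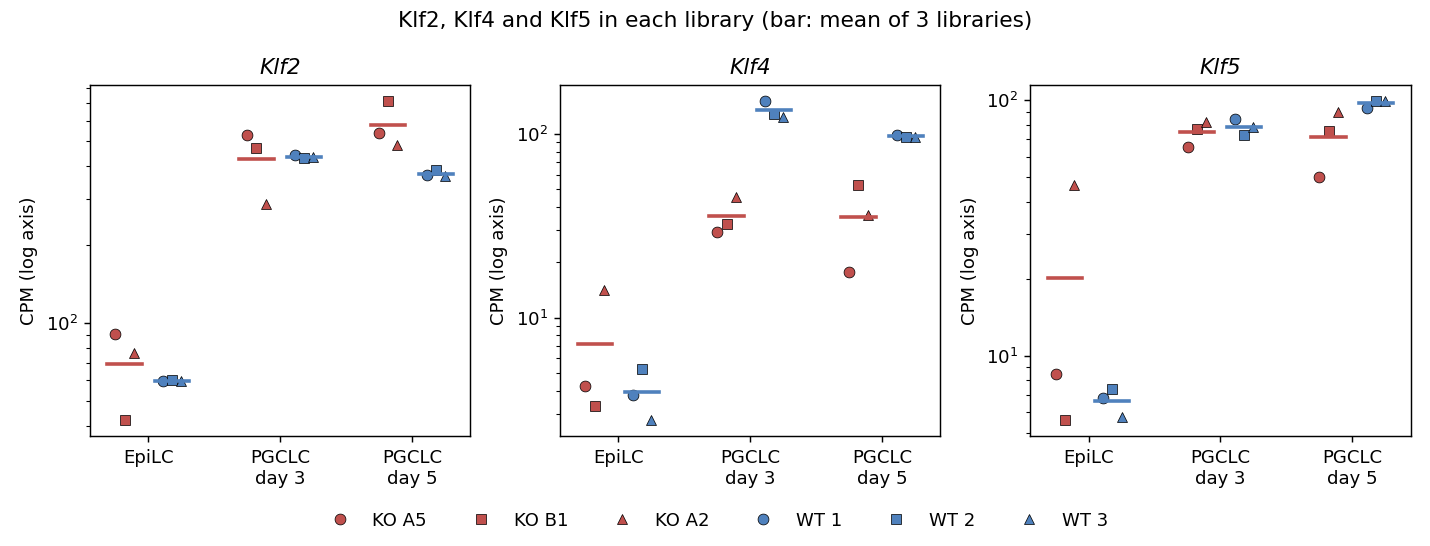
CPM of Klf2, Klf4 and Klf5 in each library on a log axis, by stage, with KO in red left of WT in blue, symbols for the line or WT number and a bar at the mean of 3 libraries. In PGCLC the Klf4 libraries of KO (17.7 to 52.4 CPM) all lie below those of WT (95.8 to 151 CPM), while Klf2 and Klf5 of day 3 KO lie around WT.

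At day 3 the factors parted: Klf4 was 26.8% of its WT level in KO PGCLC, while Klf2 and Klf5 averaged close to WT. Klf4 stood at 29.3 (A5), 32.3 (B1) and 45.6 CPM (A2) in KO, against 151, 129 and 124 CPM in WT. The groups were far apart, and all 3 KO lines were low. The log2 fold change was -1.90 ± 0.36 (95% interval -2.67 to -1.13, adjusted p = 0.0041). It was the 1 member among the 5.18% of tested genes called lower, and it stayed called under all 25 alternative settings tried, at -2.13 to -1.77. Klf2 stood at 526, 471 and 288 CPM in KO, against 441, 430 and 435 CPM in WT. Lines A5 and B1 were above every WT library and A2 below every one, so the mean hides a spread between lines. The fold change of Klf2 was -0.01 ± 0.22 (interval -0.48 to 0.46, adjusted p = 0.986). Klf5 stood at 65.3, 77.2 and 81.9 CPM in KO, against 84.3, 73.0 and 78.3 CPM in WT. These libraries overlapped, with a fold change of -0.06 ± 0.44 (interval -1.002 to 0.88, adjusted p = 0.957). The width of the Klf5 interval rests on a library of another stage: without the EpiLC library labelled KO A2 the value was -0.06 ± 0.16, and without line A2 it was -0.15 ± 0.13, uncalled in each.

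At day 5 Klf4 was again the 1 member called, at 36.9% of its WT level, where 7.62% of tested genes were called lower. Klf4 stood at 17.7 (A5), 52.4 (B1) and 36.4 CPM (A2) in KO, against 98.7, 95.8 and 96.5 CPM in WT. The KO lines differed widely among themselves, with B1 high and A5 low, yet none reached a WT library. The log2 fold change was -1.44 ± 0.36 (interval -2.20 to -0.68, adjusted p = 0.0117). It stayed called under all 25 alternatives tried, at -1.83 to -1.12.

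Klf2 stood at 539 (A5), 714 (B1) and 483 CPM (A2) in day 5 KO PGCLC, against 369, 386 and 367 CPM in WT. All 3 KO libraries were above all 3 WT libraries. The log2 fold change was 0.63 ± 0.22 (interval 0.16 to 1.10), and with an adjusted p of 0.0609 it did not pass, where 9.83% of tested genes were called higher. It passed in 8 of 25 alternatives, among them DESeq2 (0.62, adjusted p = 0.0452) and a fit without line A2 (0.73, adjusted p = 0.0171). A fit of only the day 5 libraries also passed (0.63, adjusted p = 0.0134). Other passes left out a single library outside the comparison (KO EpiLC A5, B1 or A2, or KO day 3 A2). There the value stayed at 0.62 to 0.63. Genes of chromosome 8, where Klf2 lies, had a median of -0.15 in this comparison, against 0.02 for genes elsewhere. Their median was also lower at day 3 (-0.14 against 0.02) and in EpiLC (-0.08 against 0.02). With the chromosome's median taken off, Klf2 at day 5 was at 0.78 (adjusted p = 0.0241). Klf5 stood at 49.9, 75.3 and 89.9 CPM in KO, against 92.9, 99.0 and 98.8 CPM in WT. Here too the groups did not overlap, though A2 came within a few CPM of WT. The log2 fold change was -0.43 ± 0.44 (interval -1.36 to 0.51, adjusted p = 0.546). It was called in 1 of 25 alternatives, the fit without line A2 (-0.64 ± 0.13, adjusted p = 0.000593). With only the day 5 library of A2 left out, it was -0.64 ± 0.52 and not called (adjusted p = 0.491). Without the EpiLC library labelled KO A2 alone, it was -0.43 ± 0.16 and not called (adjusted p = 0.0563). The call thus came where the change was larger and the SE smaller together.

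**Figure D2:**
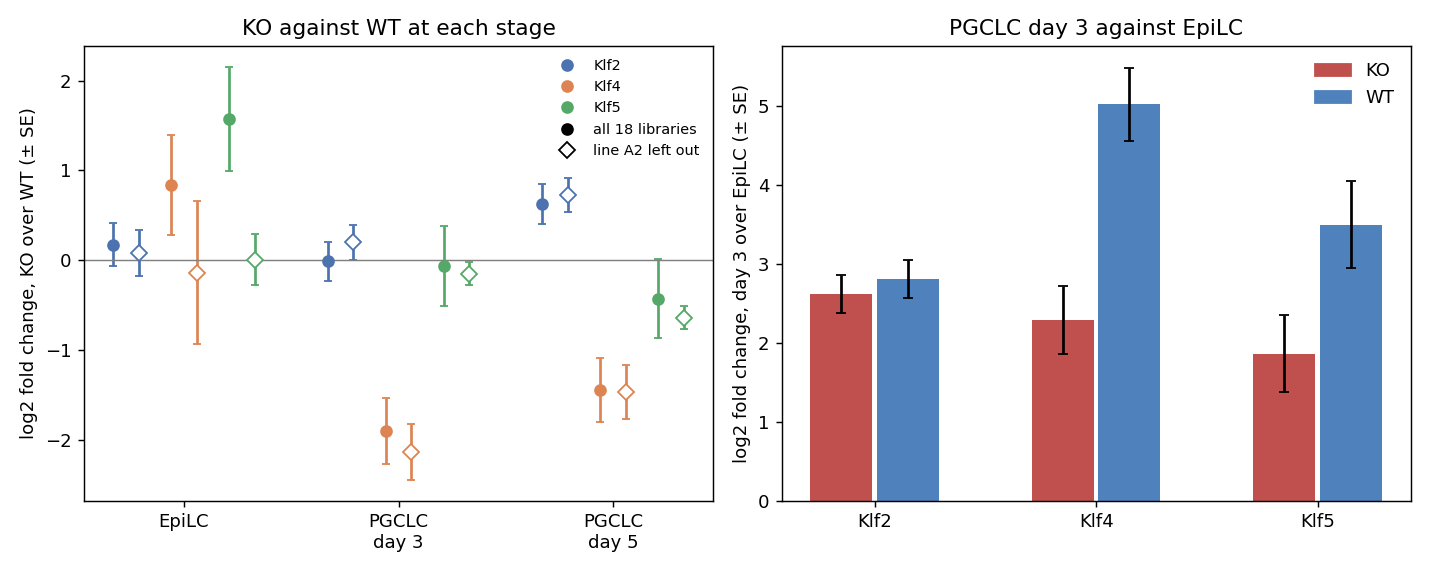
Left, log2 fold change of KO over WT (± SE) at each stage from all 18 libraries (filled circles) and without line A2 (open diamonds). Right, log2 fold change of day 3 over EpiLC (± SE) as bars from 0 in KO (red) and WT (blue). Klf4 lies below 0 at day 3 (-1.90) and day 5 (-1.44) with and without line A2, and its step is 2.29 in KO and 5.03 in WT.

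Between day 3 and day 5 no member was called in either genotype. The step called 0.552% of tested genes in KO and 0.77% in WT. In KO the log2 fold change of day 5 over day 3 was 0.40 ± 0.22 for Klf2 (adjusted p = 0.504), -0.03 ± 0.37 for Klf4 (adjusted p = 0.988) and -0.09 ± 0.45 for Klf5 (adjusted p = 0.97). Within lines, the ratio of day 5 to day 3 was 1.03 (A5), 1.51 (B1) and 1.68 (A2) for Klf2, and Klf4 moved in opposite directions, at 0.604 in A5, 1.62 in B1 and 0.798 in A2. In WT the log2 fold change was -0.24 ± 0.22 for Klf2 (adjusted p = 0.7), -0.49 ± 0.34 for Klf4 (adjusted p = 0.584) and 0.28 ± 0.44 for Klf5 (adjusted p = 0.848). Yet for each factor the WT libraries of day 5 and day 3 did not overlap, and a fit of only these 6 WT libraries called all 3, Klf2 at -0.24 (adjusted p = 4.17e-05), Klf4 at -0.49 (adjusted p = 8.87e-08) and Klf5 at 0.29 (adjusted p = 0.000995). That fit left out the 6 EpiLC libraries and the day 3 and day 5 KO libraries together, and which of them moved the calls was not tested. It called 3678 genes, against 99 in the main fit. Its p-values rest on the spread between WT libraries alone (chi-square 1.16 to 1.80 for each degree of freedom), which may be technical. The difference between the KO and WT steps from day 3 to day 5 was called for no member and for 0% of genes (0 with edgeR, 561 at an unadjusted p below 0.05, 11 with DESeq2 and 0 with limma-trend). It was 0.64 ± 0.31 for Klf2, 0.46 ± 0.50 for Klf4 and -0.37 ± 0.62 for Klf5, each at an adjusted p of 0.9999.

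In group means, Klf2 stood at 69.6 ± 24.8 CPM in KO and 59.7 ± 0.412 CPM in WT EpiLC, 428 ± 125 in KO and 435 ± 5.27 in WT at day 3, and 579 ± 121 in KO and 374 ± 10.3 in WT at day 5 (SD, n = 3 each). KO day 5 was highest, followed by WT day 3, KO day 3 and WT day 5, and KO day 3 overlapped every other PGCLC group. Klf4 stood at 7.21 ± 5.98 CPM in KO and 3.93 ± 1.24 CPM in WT EpiLC, 35.7 ± 8.66 in KO and 135 ± 14.7 in WT at day 3, and 35.5 ± 17.4 in KO and 97.0 ± 1.50 in WT at day 5. WT day 3 was highest, then WT day 5, and the KO PGCLC groups, which overlapped each other, lay between these and the EpiLC groups. Klf5 stood at 20.2 ± 22.8 CPM in KO and 6.66 ± 0.817 CPM in WT EpiLC, 74.8 ± 8.52 in KO and 78.5 ± 5.63 in WT at day 3, and 71.7 ± 20.3 in KO and 96.9 ± 3.46 in WT at day 5. WT day 5 was highest, and the other PGCLC groups overlapped.

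Between the factors, levels were compared per kilobase of the union of annotated exons (1847 bases for Klf2, 3049 for Klf4 and 5201 for Klf5). On this scale Klf2 was the most abundant in every library. In WT EpiLC, Klf2 stood at 32.3 CPM per kilobase, against 1.29 for Klf4 and 1.28 for Klf5. Of the summed level per kilobase, Klf2 made up 87.0% ± 10.2 in KO EpiLC and 92.7% ± 1.44 in WT EpiLC (SD, n = 3 each). The KO EpiLC libraries were at 94.2% (A5), 91.4% (B1) and 75.3% (labelled A2). At day 3 Klf2 made up 89.1% ± 4.89 in KO and 79.9% ± 1.36 in WT, and at day 5 92.5% ± 2.52 in KO and 80.1% ± 0.444 in WT. Klf4 made up 4.98% ± 2.66 in KO and 14.9% ± 1.21 in WT at day 3, and 3.37% ± 1.28 in KO and 12.6% ± 0.427 in WT at day 5. The Klf4 shares of KO and WT PGCLC did not overlap at either day. The share of Klf5 was 5.94% ± 2.25 in KO and 5.12% ± 0.240 in WT at day 3, and 4.18% ± 1.54 in KO and 7.37% ± 0.235 in WT at day 5.

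Within a library the ratio of Klf4 to Klf2 needs no library total. Its log2, per kilobase, was -4.29 ± 0.80 in KO and -2.42 ± 0.14 in WT at day 3, and -4.87 ± 0.68 in KO and -2.67 ± 0.06 in WT at day 5. In EpiLC it was -4.23 ± 0.998 in KO and -4.70 ± 0.45 in WT. The KO EpiLC libraries were at -5.14 (A5), -4.40 (B1) and -3.16 (labelled A2). The group means of the 3 stages thus spanned a narrower range in KO than in WT. Klf4 exceeded Klf5 per kilobase in all WT PGCLC libraries, with a log2 ratio of 1.54 ± 0.10 at day 3 and 0.77 ± 0.07 at day 5, whereas in KO it was -0.31 ± 0.21 and -0.34 ± 0.52. With the longest transcript as the length (3352 bases for Klf5) Klf4 stayed above Klf5 in WT, at 44.4 against 23.4 CPM per kilobase at day 3 and 32.0 against 28.9 at day 5. The summed level of the 3 factors was 258 ± 63.4 CPM per kilobase in KO and 295 ± 8.33 in WT at day 3, and 339 ± 69.4 in KO and 253 ± 5.60 in WT at day 5.

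**Figure D3:**
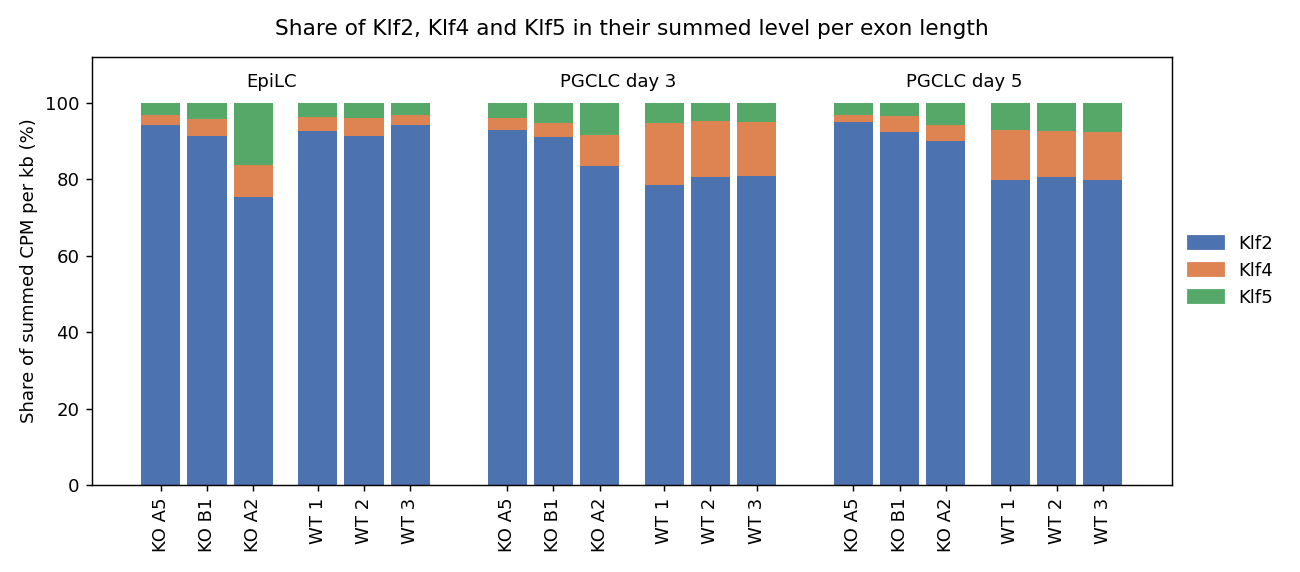
Share of each factor (%) in the summed CPM per kilobase of exon, 1 bar per library, with KO left of WT within each stage. The Klf4 part is 3.13% to 8.02% in KO day 3 libraries and 13.9% to 16.3% in WT day 3 libraries, and Klf2 fills most of every bar.

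Of 14 other Krüppel-like factors listed, 12 were tested (Klf1 and Klf14 were near 0 counts). None of the 12 was called lower in KO at day 3, where 5.18% of all tested genes were. At day 5 Klf15 was, where 7.62% of all tested genes were. Counts of 0 and 1 among 12 are close to that background. In KO EpiLC, 2 of 12 were called higher than in WT (6.93% over all tested genes) and none lower. These were Klf6 (1.56 ± 0.35, adjusted p = 0.0171), an injury- and stress-responsive factor, and Klf8 (0.69 ± 0.20, adjusted p = 0.0385), a repressor that recruits CtBP. Klf6 reached 279.6 CPM in the library labelled KO A2, against at most 51.7 CPM in WT EpiLC. Without that library Klf6 was at 0.72 and still called (adjusted p = 0.0173), and Klf8 was at 0.59 and not called (adjusted p = 0.155). Neither was called with only the EpiLC libraries fitted. At day 3, 2 of 12 were called higher in KO, where 5% of all tested genes were, and none lower. Klf8 averaged 83.8 CPM in KO and 51.2 CPM in WT (0.72 ± 0.17, adjusted p = 0.0123). Klf10, a TGF-beta-inducible repressor, averaged 238 CPM in KO and 169 CPM in WT (0.50 ± 0.11, adjusted p = 0.0101). At day 5, 3 of 12 were called higher in KO (9.83% over all tested genes) and 1 lower (7.62%). Klf7 (0.63 ± 0.17), known from neuronal development, Klf8 (0.90 ± 0.17) and Klf10 (0.79 ± 0.11) were the 3 higher, and Klf15, a regulator of metabolism in muscle and liver, was lower, at 11.2 CPM in KO and 26.3 CPM in WT (-1.23 ± 0.29, adjusted p = 0.00779). The median log2 fold change of the 12 was 0.01, -0.05 and 0.22 at the 3 stages, against 0.01 over all tested genes at each.

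From EpiLC to day 3, 7 of the 12 other factors rose and 3 fell in each genotype. Over all tested genes, 20.6% rose and 21.4% fell in KO, and 29% rose and 28.5% fell in WT. Klf3, Klf8, Klf9, Klf10, Klf11 and Klf15 rose in each genotype, and Klf7, Klf13 and Klf17 fell in each. Klf15 rose by 1.40 ± 0.32 in KO and 2.71 ± 0.33 in WT, a difference that was not called (-1.32 ± 0.47, adjusted p = 0.101). Its KO step was 2.04 without the EpiLC library labelled KO A2. Klf10 rose by 1.83 ± 0.12 in KO and 0.96 ± 0.12 in WT, and was the 1 of 12 whose step differed between the genotypes (0.87 ± 0.16, adjusted p = 0.00654), in the direction opposite to Klf4. Without that library the difference was 0.82 (adjusted p = 0.00662). Of the related Sp factors, which bind the same GC boxes, 6 of 9 were tested. Sp3 was called higher in KO EpiLC (0.35 ± 0.09, adjusted p = 0.0273), though not without the library labelled KO A2 (0.27, adjusted p = 0.104). Sp5, a target of WNT signalling, was called higher in KO at day 3 (2.19 ± 0.64, adjusted p = 0.0394) and day 5 (2.66 ± 0.66, adjusted p = 0.0103), and Sp1 in KO at day 5 (0.33 ± 0.09, adjusted p = 0.0217). None was called lower in KO. Sp5 was a low gene, at 4.41 CPM in KO and 0.957 CPM in WT at day 3.

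**Figure D4:**
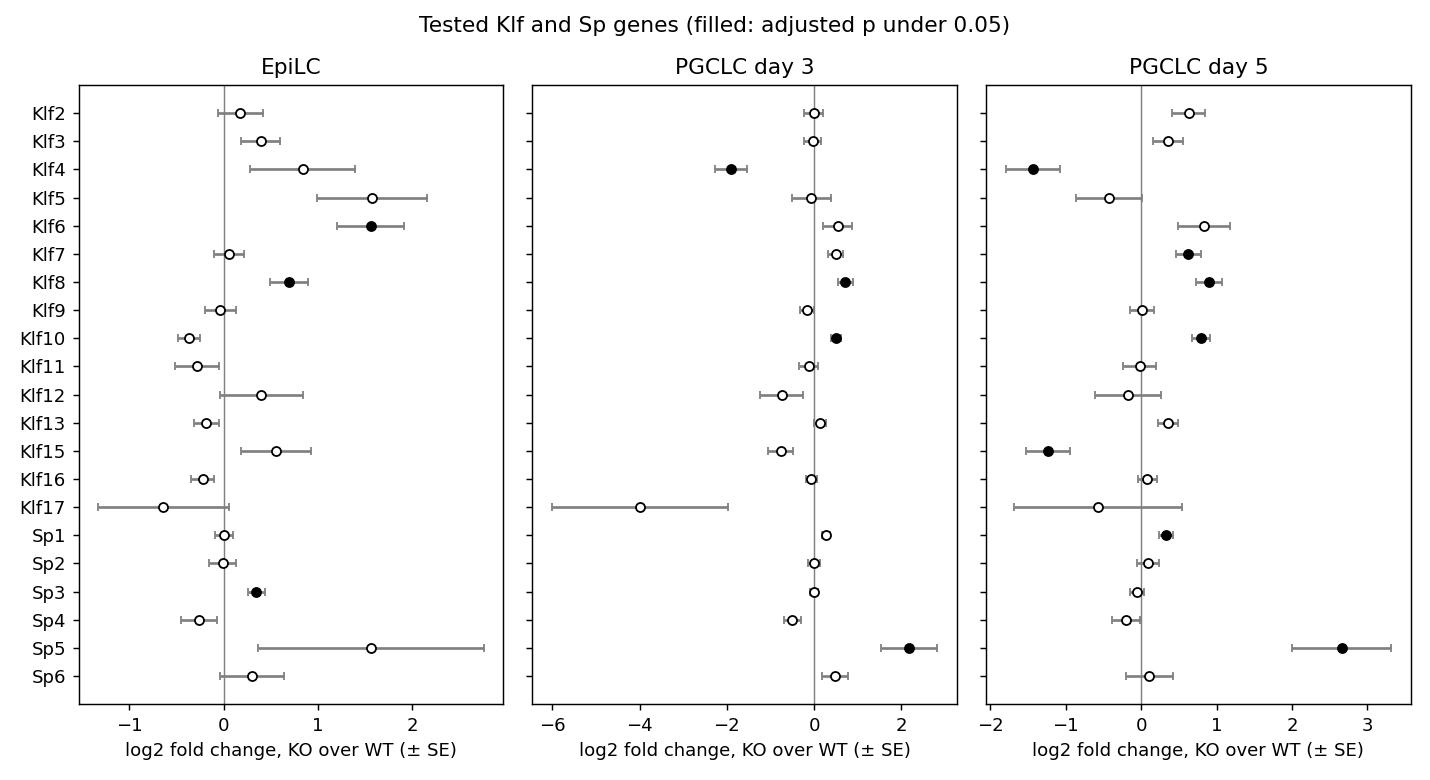
Log2 fold change of KO over WT (± SE) for the tested Klf and Sp genes at each stage, filled where the adjusted p is below 0.05; the horizontal scales differ between panels. Klf4 is the 1 gene called lower at day 3 (-1.90), Klf4 and Klf15 are those called lower at day 5 (-1.44 and -1.23), and no gene is called lower in EpiLC. Over all tested genes, 5.18% are called lower at day 3, 7.62% at day 5 and 4.15% in EpiLC.

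Of 13 other genes of the naive network, 5 were called lower in KO and none higher at day 3, with a median of -0.82, where 5.18% of all tested genes were lower. At day 5, 4 were called lower and none higher, with a median of -0.85, where 7.62% of all tested genes were lower. At day 3 they included Esrrb itself, the nuclear receptor Nr0b1 (-2.03 ± 0.36, adjusted p = 0.00234), the growth factor Fgf4 (-1.89 ± 0.39, adjusted p = 0.00608) and the adhesion gene Jam2 (-1.48 ± 0.26, adjusted p = 0.00175). The remaining member of the 5 was Tcl1, a co-activator of AKT, named after its values were seen. At day 5 Esrrb, Tcl1 (-1.41 ± 0.24, adjusted p = 0.000779), Fgf4 (-1.18 ± 0.37, adjusted p = 0.0393) and Jam2 (-1.12 ± 0.25, adjusted p = 0.00498) were called. From EpiLC to day 3, 10 of the 13 rose and 1 fell in KO, and 11 rose and 1 fell in WT, against 20.6% and 29% of all tested genes that rose.

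Of 10 genes of LIF and STAT3 signalling, which acts on Klf4, none passed between KO and WT PGCLC at day 3 or day 5, with medians of -0.03 and -0.14. Since 10.2% and 17.5% of all tested genes were called there, a count of 0 among 10 is close to the background. Stat3, the transcription factor of the pathway, stood at 150.1 to 243 CPM in KO and 101.02 to 113 CPM in WT at day 3 (0.82 ± 0.27, adjusted p = 0.0651), and at 179 to 203 CPM in KO and 113 to 115 CPM in WT at day 5 (0.75 ± 0.27, adjusted p = 0.067). Its KO libraries lay above all WT libraries at each day, though it did not pass. Stat3 at these days was named after its values were seen. In EpiLC 4 of the 10 were called higher in KO, where 6.93% of all tested genes were. Among the 4 were Stat3 (1.81 ± 0.32, adjusted p = 0.00658) and Socs3, a feedback inhibitor of the pathway (1.73 ± 0.35, adjusted p = 0.0113). The 10 genes summed to 794.5 CPM in the library labelled KO A2, against 385 and 459 CPM in the other KO EpiLC libraries and 334 to 352 CPM in WT EpiLC. Without that library Stat3 (1.16, adjusted p = 0.00241) and Socs3 (1.12, adjusted p = 0.0283) were still called. The kinase genes Jak2 (0.55, adjusted p = 0.105) and Pim1 (0.32, adjusted p = 0.3005) were not. None of the 4 was called with only the EpiLC libraries fitted. From EpiLC to day 3, 7 of 10 rose in KO and 9 of 10 in WT, none falling, against 20.6% and 29% of all tested genes that rose. Socs3 rose by 2.83 ± 0.27 in KO and 4.55 ± 0.32 in WT, and its step differed between the genotypes (-1.72 ± 0.42, adjusted p = 0.0263). Unlike Klf4, Socs3 was called higher in KO EpiLC and was not called between KO and WT at day 3. Without the library labelled KO A2 the Socs3 difference was -1.11 (adjusted p = 0.0313). Of 12 genes of FGF and ERK signalling, which destabilises Klf2 protein, 1 was called higher and 1 lower in KO at day 3, and 1 higher and 2 lower at day 5. Of 6 genes for ubiquitin ligases known to act on Klf proteins, none was called at day 3, and Fbxo32 was called higher at day 5. Over all tested genes, 5% were called higher and 5.18% lower at day 3, and 9.83% higher and 7.62% lower at day 5.

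Immediate-early genes are those that cells switch on quickly when handled or stimulated, and Klf2 and Klf4 are induced with them in some cell types. Of 13 listed, 3 (Fos, Egr1 and Ier2) were called higher in KO at day 3 and at day 5, where 5% and 9.83% of all tested genes were, and none lower. The other 10 of 13 did not pass at either day. Egr1 averaged 177 CPM in KO and 43.3 CPM in WT at day 3 (2.05 ± 0.27, adjusted p = 0.000189). The 13 genes summed to 882 to 989 CPM in KO and 635 to 655 CPM in WT at day 3, and 944 to 998 CPM in KO and 658 to 744 CPM in WT at day 5. Marker sums of other cell types at day 3 were 141 to 325 CPM in KO and 84.3 to 118 CPM in WT for trophoblast (1 of 8 tested markers called). They were 97.6 to 109 CPM in KO and 51.4 to 53.0 CPM in WT for mesenchyme (none of 6 called). At day 5 the mesenchyme sum was 128 to 248 CPM in KO and 62.3 to 69.4 CPM in WT, with 1 of 6 called (Col1a1, a collagen gene, higher), and the trophoblast sum was 97.3 to 141 CPM in KO and 82.6 to 114 CPM in WT, with 1 of 8 called (Tfap2a, higher). For endothelium, where Klf2 is also known to act, the day 3 sums were 159 to 328 CPM in KO and 221 to 252 CPM in WT (none of 4 called, Emcn at 0), and the day 5 sums were 254 to 428 CPM in KO and 301 to 327 CPM in WT (none of 4 called). Of the 7 endothelial markers summed, Kdr, Cdh5 and Emcn did not pass the filter on low counts. From EpiLC to day 3, Pecam1 was called higher in each genotype, and in KO also Esam higher and Tek lower. The sum therefore need not measure endothelial cells. Over all tested genes, 10.2% were called in either direction at day 3 and 17.5% at day 5. Line A2, which had the lowest Klf2 among KO lines at each day, also had the lowest endothelial sum. The part of these in the Klf values was not tested.

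Across the 18 libraries, the pattern of each factor was compared with that of 10092 genes of at least 5 CPM by Pearson correlation of log2 CPM. The points share library, depth and stage, and fall into EpiLC and PGCLC, so these values describe the shape over the groups. Closest to Klf2 were Mtf2 (r = 0.986), a Polycomb accessory protein, Tspan1 (0.981), Prdm14 (0.979), a regulator of naive pluripotency and of germ cell fate, Brpf3 (0.979) and Mapk13 (0.979). Prdm14 averaged 65.3 CPM in KO and 65.7 CPM in WT at day 3, against 2.57 CPM in KO EpiLC and 1.32 CPM in WT EpiLC. Closest to Klf4 were Lima1 (0.983), an actin-binding protein, Rab18 (0.983), Zbtb44 (0.980), Tfcp2l1 (0.980), a naive factor downstream of LIF, and the cyclin gene Ccnd3 (0.977). Zbtb44 averaged 140 CPM in KO and 252 CPM in WT at day 3. Closest to Klf5 were Bcl3 (0.987), a STAT3 target, Tbx3 (0.985), a naive factor of the T-box family, the kinase gene Prkci (0.984), Smad7 (0.984), an inhibitor of TGF-beta signalling, and Ap3b1 (0.982). Tbx3 averaged 87.6 CPM in KO and 103 CPM in WT at day 3.

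These genes were picked as the closest, so by that choice the factors, which are not among them, had to rank lower for each other. Of 10092 genes, Klf5 ranked 172 and Klf2 837 for Klf4. For Klf5, Klf4 ranked 323 and Klf2 541, and for Klf2, Klf5 ranked 464 and Klf4 978. Klf4 and Klf5 correlated at 0.924, Klf2 and Klf5 at 0.9004 and Klf2 and Klf4 at 0.843. Esrrb correlated with Klf4 at 0.947 (rank 79 of 10092 genes for Klf4), with Klf5 at 0.875 and with Klf2 at 0.843. Without the EpiLC library labelled KO A2, Klf2 and Klf5 correlated at 0.952, Lima1, Rab18, Zbtb44 and Tfcp2l1 were again among the 5 nearest to Klf4, Smad7, Prkci and Bcl3 among those nearest to Klf5, and Mtf2 among those nearest to Klf2, with Pvr first (0.992).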

How the data were processed

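Polyadenylated RNA of 18 libraries is held in deposited files of unnormalized counts by Ensembl gene ID. A deposited table of CPM covers the whole series, and its values match those counts scaled to each library's total. The submitters' processing notes name Trim Galore 0.4.3.1 and the builds mm10 and GRCm38.p4. For aligner, counter, annotation and strand, the sources used here give nothing. Of 25965 rows, 56 carry no gene ID (0.0559% to 0.0828% of a library's counts) and were left out. Positions and exon lengths came from GENCODE M21 (GRCm38).

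Counts were scaled by TMM, filtered with filterByExpr and fitted with a mean for each of 6 groups by robust quasi-likelihood in edgeR 4.0.16 (R 4.3.3), with 9 comparisons: KO against WT per stage, 2 steps per genotype, and each step's interaction with KO. Patterns were compared on log2 CPM with a prior count of 2. On simulated data at day 3 (12561 genes, 200 changed), the test recovered 29.9% of genes with a 1.5-fold change, 74.6% at 2-fold and 97.0% at 4-fold. The simulation gave KO and WT libraries the same spread for each gene, while the real KO libraries varied more than the WT libraries. Recovery in the real comparison may therefore differ. The members, gene lists and tests were chosen with earlier results of these data known. Named were the members, Esrrb, Klf and Sp genes, up to 4 called genes of each list with the largest change, and the 5 genes most like each member.

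Replicate names paired KO libraries, which share a line (deviations correlated in 9 of 9 pairs, 0.110 to 0.588), but not WT libraries (-0.048 to 0.066). Alternatives were other size factors, no filter, DESeq2 1.42.0, limma-trend (limma 3.58.1, log2 of CPM plus 1), only the groups compared, single libraries or line A2 left out, the replicate block, the same-chromosome median taken off and, chosen after seeing the data, the longest transcript as length and pattern likeness without a library.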

Additional observations from a re-analysis of the deposited data

Results flagged for a closer look

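The step of Klf4 from EpiLC to day 3 differed between KO and WT by a test of the difference itself (KO step minus WT step, log2 -2.74 ± 0.66, edgeR, adjusted p = 0.0236, n = 3 in each of 4 groups). Klf4 rose by 2.29 in KO and by 5.03 in WT, and each of the 3 KO lines rose. Over the 25 alternatives the adjusted p ran from 0.000641 to 0.186, and the call was lost in 5 of them.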

How the results depend on the processing

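Of the results on the members, those on Klf4 between KO and WT PGCLC and the steps of Klf2 and Klf4 from EpiLC to day 3 kept direction and call under every alternative run, and no called value reversed. Klf5 between KO and WT EpiLC passed with DESeq2 (1.58). Klf2 between KO and WT at day 5 passed with DESeq2 (0.62), with only the groups compared (0.63), without line A2 (0.73) and with the chromosome median taken off (0.78). With only the groups compared, WT day 5 against day 3 passed for Klf2 (-0.24), Klf4 (-0.49) and Klf5 (0.29), and Klf5 from EpiLC to day 3 in KO did not (1.87). Without line A2, Klf5 between KO and WT at day 5 passed (-0.64), and the Klf4 interaction over the first step did not (-1.99). The cause was not tested.

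Leaving out single libraries gave (log2) -0.04 to 0.43 for Klf2, -0.13 to 1.18 for Klf4 and 0.011 to 2.01 for Klf5 between KO and WT EpiLC, 0.45 to 0.73 for Klf2 and -0.64 to -0.22 for Klf5 at day 5, -3.08 to -1.76 for the Klf4 interaction and -2.07 to -0.0705 for that of Klf5 over the first step. Genes called ran from 181 to 2473 (KO against WT in EpiLC), 621 to 2453 (day 3), 1303 to 3596 (day 5), 9 to 349 (KO day 5 against day 3), 10 to 604 (WT day 5 against day 3), 361 to 1527 and 0 to 8 (interactions over the first and the last step).

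Counts of called genes, against 1424, 1309 and 2244 in the KO comparisons by stage, 71 (KO) and 99 (WT) for day 5 against day 3, 5394 for day 3 against EpiLC in KO, and 847 and 0 for the interactions, moved by over 1.5 times as follows. DESeq2 gave 172 (KO, day 5 against day 3), 334 (WT) and 11 (last interaction), and no filter 46 (KO, day 5 against day 3). Only the groups compared gave 0 in EpiLC (2425 unadjusted), 0 (KO, 913 unadjusted) and 3678 (WT) for day 5 against day 3, 2161 for day 3 against EpiLC in KO, and 456 and 5 for the interactions. Leaving out line A2 gave 2716 and 3887 for KO against WT at day 3 and day 5, 873 (KO) and 2016 (WT) for day 5 against day 3, and 1912 and 85 for the interactions. The replicate block gave 216 (KO) and 387 (WT) for day 5 against day 3 and 1457 for the first interaction. It changed no call of a member: the Klf4 interaction was -2.66 (adjusted p = 0.0181) with the block. KO against WT within a stage cannot be blocked, since each line has a single genotype.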
